A study of Larimichthys crocea with 4 samples.

Results

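Cytochrome P450 genes were examined in liver RNA of Larimichthys crocea, the large yellow croaker, a marine fish farmed in net-cages. Members were the assembled transcripts (unigenes) whose KEGG definition, Nr name or Swiss-Prot name contains "cytochrome P450". Of 110 such unigenes, 3 that name a reductase and 1 with the KEGG number of lanosterol 14-alpha demethylase were left out, so that 106 of 57216 unigenes remained. They carry 24 KEGG numbers and fall into 13 P450 families and 24 subfamilies. The family number was the same in every database that gave one for a unigene. The subfamily within family 2 often was not. KEGG, for example, places all unigenes called CYP2N or CYP2P here in CYP2J. Subfamilies were taken from KEGG, but in family 2 apart from CYP2R from Nr first and then Swiss-Prot.

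P450 enzymes are heme proteins, most of which insert 1 atom of oxygen into a substrate with electrons from a partner protein. Of the latter, those of the endoplasmic reticulum receive electrons from NADPH-cytochrome P450 reductase and cytochrome b5, and those of mitochondria from adrenodoxin. In vertebrate liver P450 enzymes clear foreign compounds, hydroxylate fatty acids, turn cholesterol into bile acids, and activate or break down vitamin D and retinoic acid.

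Liver RNA was sequenced as 1 library for each of 4 conditions. The control fish received no treatment and are called normal feeding here, the fasting fish were kept 21 d without food, and the remaining groups were exposed for 12 h to cold stress or to thermal stress. Normal feeding and fasting fish came from net-cages in sea water of 22°C, with 6 fish in each group, and whether their RNA was pooled is not stated in plain words. The age, strain and sex of the fish, and the number of fish and the temperatures of the stress groups, are not given in the sources used here.

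The 4 libraries held between 17.02 and 19.53 times 1000000 fragments counted on unigenes, each fragment being a pair of reads. Every test below compares 2 libraries and not 2 conditions, since no value has an error between replicates, and the 3 comparisons with normal feeding share that library. A unigene or a sum was called higher or lower where an exact two-sided binomial test gave an unadjusted p under 0.05 and the ratio per library total was at least 2-fold. Intervals on ratios are 95% and cover counting error only. In whole liver, fewer cells of a type and less RNA per cell cannot be told apart. Unigenes named as hepatocyte proteins (92 unigenes, such as apolipoprotein A-I and fibrinogen) made up 8.29 to 10.5% of the fragments. Those named as enzymes of exocrine pancreas (45 unigenes) made up 4.05% in normal feeding, 10.2% in fasting, 5.74% in cold stress and 4.19% in thermal stress. The part of this difference in the P450 results was not tested beyond scaling without these enzymes, which moved every log2 ratio in fasting by 0.095.

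Members were longer than most unigenes, with a median of 1963 bp against 402 bp. The assembly split many P450 genes into several contigs. The members came from 53 clusters or single unigenes, and 71 of them lay in 18 clusters with several contigs, the largest holding 12. A read that fits several unigenes is listed at each of them. Of the reads so listed on members, 91.4 to 93.8% fitted several unigenes, against 51.0 to 60.0% over all unigenes. These are shares of placements, and the shares of separate reads are lower. The deposited fragment numbers lay between the uniquely placed reads and 1 fragment for every 2 of them for 96.7 to 97.1% of unigenes. They therefore leave out most reads that fit several unigenes. Of the 106 members, 98 had a fragment in all 4 libraries and 86 had more than 3 in each. Subfamily sums were also computed with all placed reads, in which a read counts at every place it fits, and values from it are given where they change a call or a direction.

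With each contig counted apart, most calls among the members were higher in fasting and lower under cold and thermal stress. With contigs of a cluster summed, 13 units were called higher and 14 lower in fasting. These counts were 7 and 14 in cold stress and 12 and 12 in thermal stress. The direction thus held in cold stress but not in fasting or thermal stress. The share of members called was above that of all unigenes tested in each comparison. In fasting 51 of 106 members were called (48.1%, against 30.1% of all unigenes tested), 32 higher and 19 lower. In cold stress 47 members were called (44.8% of the 105 with fragments, against 33.8%), 9 higher and 38 lower. In thermal stress 51 members were called (48.6%, against 25.0%), 16 higher and 35 lower. A larger count makes a call easier. Among unigenes with at least 100 fragments in 1 of the libraries compared, 61.8% of members and 40.8% of all unigenes were called in fasting, 51.0% and 36.9% in cold stress, and 50.9% and 25.1% in thermal stress. The median log2 ratio of the members was 0.26 in fasting, -0.70 in cold stress and -0.64 in thermal stress, beside -0.10, 0.18 and -0.19 over all unigenes with enough fragments for a ratio. Scaling by TMM or by median-of-ratios size factors raised every log2 ratio by 0.12 to 0.18 in fasting and by 0.15 in thermal stress, and lowered it by 0.18 to 0.21 in cold stress. With the spread between libraries set by an assumed coefficient of variation of 0.4, edgeR's exact test left 26, 18 and 17 calls. With a coefficient of 0.65, taken from all libraries but fasting, it left 7, 4 and 4. That coefficient took normal feeding, cold stress and thermal stress as replicates. The differences tested in cold and thermal stress therefore entered their own spread, which by itself lowers the number of calls there. For both coefficients and for cluster sums the share of all unigenes called was not computed.

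**Figure D1:**
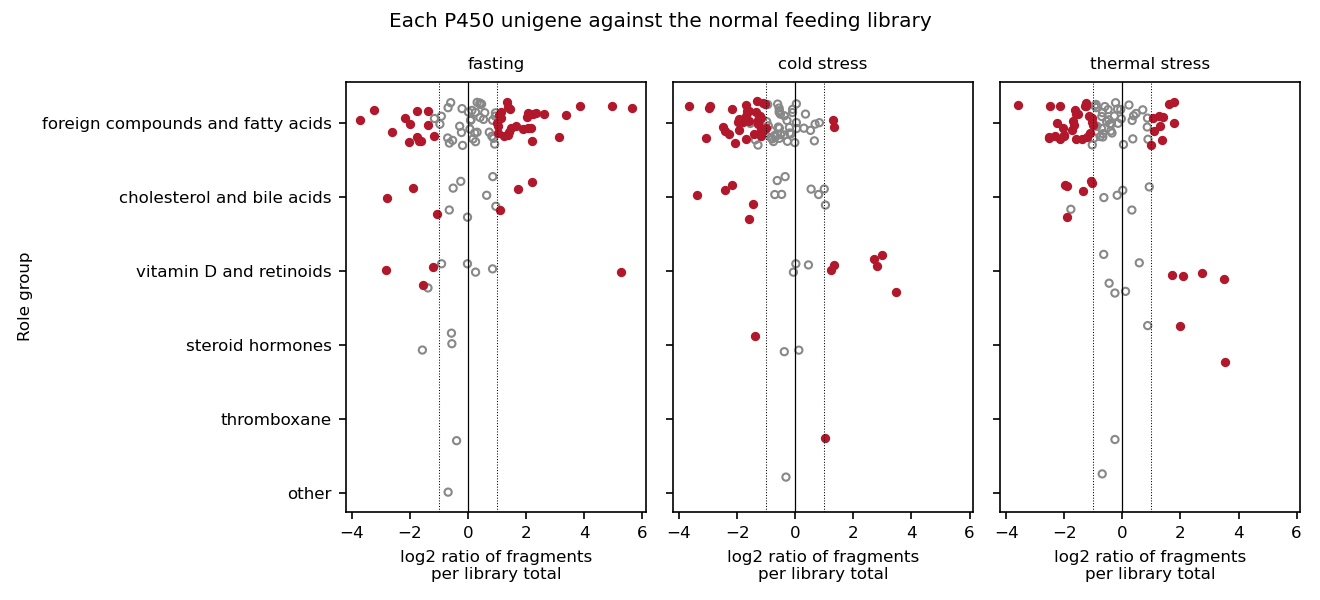
Log2 ratio of fragments per library total of each P450 unigene against the normal feeding library (horizontal axis), in rows by role group, for fasting, cold stress and thermal stress. Filled red points were called at 2-fold and open grey points were not, dotted lines mark a 2-fold ratio, points are spread vertically at random, and unigenes with 3 or fewer fragments in both libraries are not drawn. In fasting 32 points were called higher and 19 lower, and in cold stress 9 and 38.

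All members together held 88043 fragments in normal feeding, 58614 in fasting, 51164 in cold stress and 62325 in thermal stress, or 5033, 3001, 3006 and 3478 per 1000000. The normal feeding library was the highest, and fasting and cold stress did not differ beyond counting error (p = 0.79, exact binomial test). This equality holds for library totals only. TMM moved every log2 ratio to normal feeding by 0.12 in fasting and by -0.21 in cold stress, which puts fasting above cold stress. The log2 ratios to normal feeding were -0.75 (interval -0.76 to -0.73), -0.74 (-0.76 to -0.73) and -0.53 (-0.55 to -0.52), none of which reached 2-fold. Unigene28866 of CYP3A, with 54766 fragments in normal feeding and 14915 in fasting, decided the direction of the fasting value by fragments. Without it the other 105 members were higher in fasting than in normal feeding by fragments, with a log2 ratio of 0.23 (0.21 to 0.25). Cold stress (-0.24) and thermal stress (-0.43) stayed below normal feeding. By placed reads the rise in fasting did not hold. All members held 156601 uniquely placed reads and 1763427 at several places in normal feeding, and 97361 and 1038516 in fasting. Unigene28866 held 101929 and 638092 of these in normal feeding, and 24868 and 272763 in fasting. The other members were thus lower in fasting by placed reads. Leaving out Unigene28866 was chosen after seeing the data.

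The make-up of the P450 fragments differed most in fasting. CYP3A held 69.9% of them in normal feeding, 30.0% in fasting, 55.3% in cold stress and 72.6% in thermal stress. Family 1 held 5.21%, 21.4%, 7.87% and 6.40%, and family 2 held 14.5%, 31.2%, 17.8% and 10.8%. These shares rest on deposited fragments, which leave out most reads fitting several unigenes. Such reads made up 86.2% of those placed on Unigene28866 of CYP3A in normal feeding and 91.6% in fasting. The make-up depended on the way reads were counted. With a read counted at every place it fits, members in fasting held 97361 uniquely placed reads and 1038516 at several places. Of these, Unigene28866 held 24868 and 272763, and CL841.Contig3 of CYP3A held 1309 and 264066. CYP3A thus held a larger part in fasting by placed reads than the 30.0% by fragments. Full shares by placed reads are not given.

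**Figure D2:**
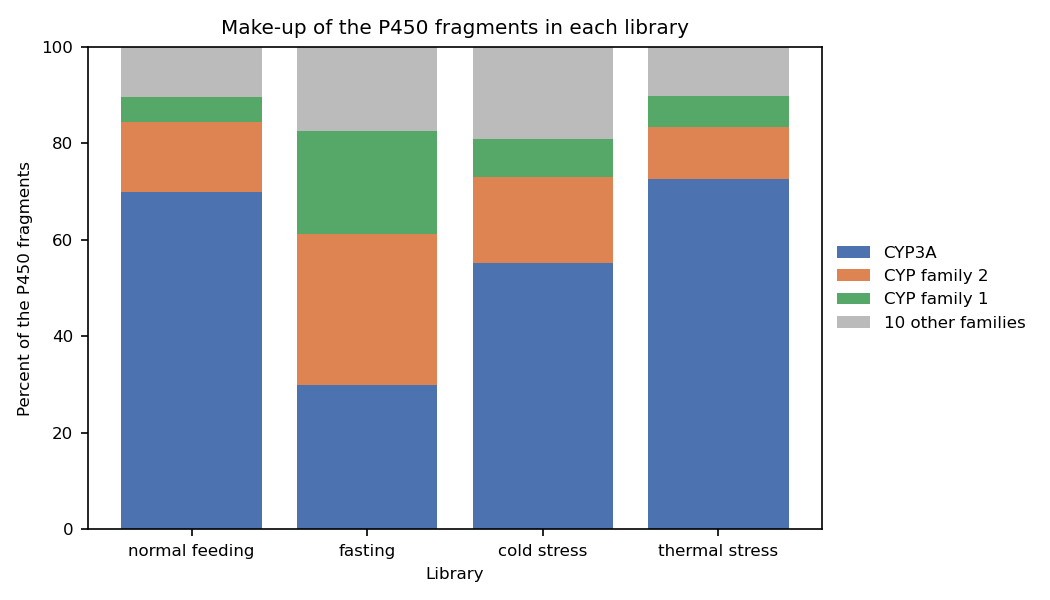
Share of the P450 fragments (vertical axis, percent) held by CYP3A, family 2, family 1 and the 10 other families in each of the 4 libraries (horizontal axis). CYP3A is the largest block in normal feeding (69.9%), cold stress (55.3%) and thermal stress (72.6%), while in fasting family 2 (31.2%) and CYP3A (30.0%) are about equal. The fragments drawn leave out most reads that fit several unigenes, and by placed reads CYP3A held a larger part in fasting.

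CYP3A enzymes oxidize a broad range of drugs and also steroids, and in mammals are induced through the pregnane X receptor. The 16 CYP3A unigenes summed to 61566 fragments in normal feeding, 17557 in fasting, 28288 in cold stress and 45242 in thermal stress. All other libraries were below normal feeding, with log2 ratios of -1.97 (-1.99 to -1.94) in fasting, -1.08 (-1.10 to -1.06) in cold stress and -0.48 (-0.50 to -0.46) in thermal stress, the first and second of which were called. By placed reads these were -1.34, -0.52 and -0.28, so that the call in cold stress was lost. Over the CYP3A unigenes with at most 50% of reads fitting several unigenes, Unigene29390 and the short Unigene44034, cold stress (0.04) and thermal stress (1.37) were above normal feeding. Unigene28866 was the member with the highest FPKM in normal feeding (877 fragments per kilobase of unigene per 1000000 fragments, rank 145 of 57216 unigenes), and held 54766, 14915, 23773 and 36993 fragments in the 4 libraries in the same order.

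The other CYP3A unigenes did not follow 1 pattern. Unigene29390, none of whose reads fitted elsewhere, held 1597 fragments in normal feeding, 134 in fasting, 1602 in cold stress and 4256 in thermal stress. It had the largest fall of any named member in fasting (log2 ratio -3.73), was close to normal feeding in cold stress, and was called higher in thermal stress (1.38). The cluster CL3870 held 385, 815, 653 and 951 fragments, so that it was lowest in normal feeding. Its log2 ratios were 0.92 (0.75 to 1.10), 0.80 (0.62 to 0.99) and 1.27 (1.10 to 1.44), of which the last was called. Its second contig, CL3870.Contig2, with 58, 114, 142 and 155 fragments, was among the 5 largest rises in cold stress and in thermal stress. Unigene22467 was lower in fasting (150 against 27 fragments, log2 ratio -2.63) and higher in cold stress (359 fragments, 1.30). Over the 16 unigenes 8 were called lower and 0 higher in fasting, 4 lower and 2 higher in cold stress, and 2 lower and 5 higher in thermal stress. Over all unigenes tested the shares called lower and higher were 17.6% and 12.5%, 13.3% and 20.5%, and 15.6% and 9.42%, so that the 6 of 16 called in cold stress are near the background.

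**Figure D3:**
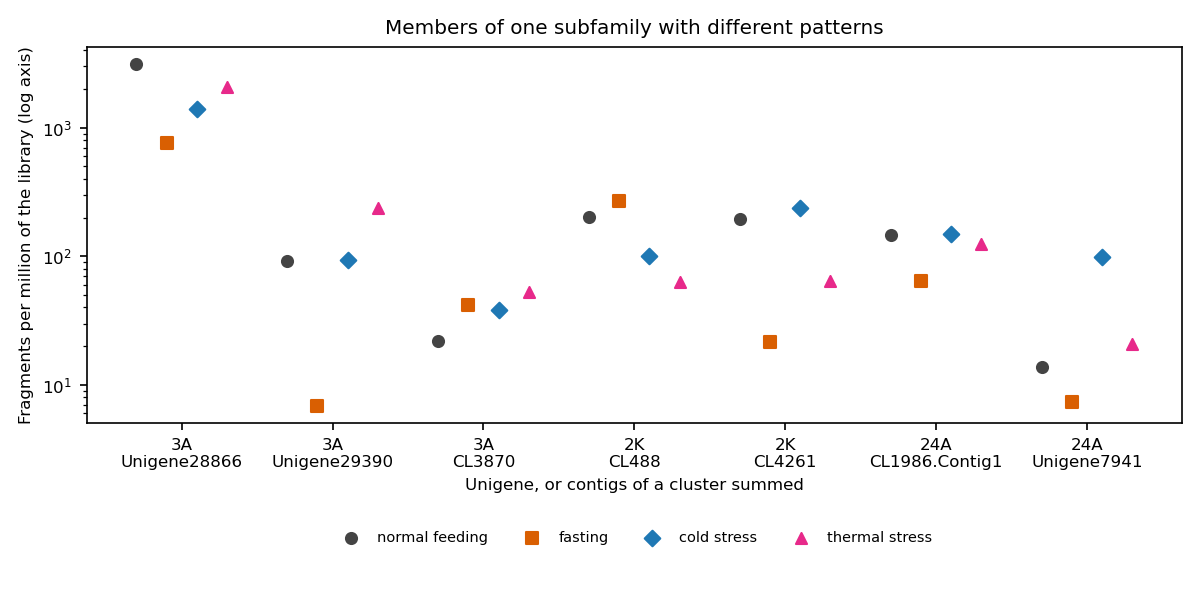
Fragments per 1000000 of the library (vertical log axis) for 3 CYP3A units, 2 CYP2K units and 2 CYP24A units (horizontal axis), with 1 point for each of the 4 libraries and the contigs of CL3870, CL488 and CL4261 summed. Unigene28866 is highest in normal feeding, Unigene29390 in thermal stress, CL488 in fasting and CL4261 in cold stress.

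CYP1A oxidizes planar aromatic compounds and is the standard target of the aryl hydrocarbon receptor in fish. Its 2 contigs summed to 4502 fragments in normal feeding, 12501 in fasting, 3997 in cold stress and 3793 in thermal stress. Fasting stood apart from the other libraries with a 2.49-fold higher level (log2 ratio 1.31, 1.27 to 1.36), while cold stress (-0.13) and thermal stress (-0.28) were within 2-fold of normal feeding. CL3995.Contig1 was the member with the highest FPKM in fasting (229.7, rank 367), above Unigene28866 (213.9). FPKM rests on deposited fragments, which leave out most reads fitting several unigenes. In fasting such reads made up 47.6% of those placed on CL3995.Contig1 and 91.6% on Unigene28866. By placed reads Unigene28866 held more there (24868 unique and 272763 at several places) than CL3995.Contig1 (21595 and 19648). The 4 unigenes that KEGG names CYP1B1, 3 of which Nr names cytochrome P450 1C2, went the other way. They summed to 81, 33, 30 and 194 fragments, so that thermal stress was highest. They were lower in fasting (-1.45, -2.08 to -0.85) and cold stress (-1.39, -2.05 to -0.77) and higher in thermal stress (1.23, 0.84 to 1.62). Unigene19212 (20 against 71 fragments) and Unigene26875 (13 against 41) were among the 5 largest rises in thermal stress. The sum of family 1 followed CYP1A, which held nearly all of its fragments.

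Family 2 is the largest P450 family of vertebrates, with enzymes for drugs and for unsaturated fatty acids. Apart from CYP2R it had 47 unigenes. In fasting 24 of them were called higher and 2 lower (12.5% and 17.6% of all unigenes tested were called higher and lower). In cold stress 0 were called higher and 21 lower (20.5% and 13.3%), and in thermal stress 3 higher and 21 lower (9.42% and 15.6%). Many of these unigenes are contigs of the same cluster and share reads. The sum was 1.31-fold higher in fasting (log2 ratio 0.39, 0.36 to 0.43) and lower in cold stress (-0.46, -0.50 to -0.42) and thermal stress (-0.97, -1.02 to -0.93), and none of these was called. CL4261.Contig2 of CYP2K held the most fragments of the family over the 4 libraries together, and without it the values were 0.82, -0.90 and -0.80.

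CYP2J enzymes of mammals epoxidize arachidonic acid, and CYP2N and CYP2P are fish subfamilies related to them. CYP2J held 1212 fragments in normal feeding, 3013 in fasting, 752 in cold stress and 1082 in thermal stress. CYP2N held 971, 2551, 552 and 1571, and CYP2P held 804, 2185, 206 and 598. Fasting was the highest library for each of them and cold stress the lowest. The log2 ratios in fasting were 1.15 (1.06 to 1.25) for CYP2J, 1.23 (1.13 to 1.34) for CYP2N and 1.28 (1.17 to 1.40) for CYP2P, all called. In cold stress they were -0.65, -0.78 and -1.92 (-2.15 to -1.70), with CYP2P alone called. In thermal stress CYP2N was above normal feeding (0.66, 0.54 to 0.78) and CYP2J (-0.20) and CYP2P (-0.46) below it, none called. CYP2P has 1 unigene with few reads placed elsewhere (CL1874.Contig1, 268 bp), and there fasting was not above normal feeding (60 against 63 fragments).

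Among single contigs of these subfamilies, CL1049.Contig1 of CYP2J (20 against 233 fragments), CL459.Contig1 of CYP2N (10 against 98) and CL86.Contig1 of CYP2N (20 against 135) were among the 5 largest rises in fasting. CL1874.Contig3 (130 against 15) and CL1874.Contig4 (185 against 47), both of CYP2P, were among the 5 largest falls in cold stress. On each of these contigs 94.4 to 99.0% of the reads fitted several unigenes in the library where that share was highest. CL3054.Contig1 of CYP2J rose more in fasting (8 against 275 fragments, log2 ratio 4.94) but was under the minimum of 10 fragments for ranking.

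CYP2X, a fish subfamily, showed the largest rise of family 2 in fasting. Its 2 unigenes had no reads placed elsewhere. Unigene1853 held 44 fragments in normal feeding, 710 in fasting, 8 in cold stress and 19 in thermal stress, and Unigene12727 held 4, 225, 2 and 14. Fasting was highest in both and cold stress lowest. The sum was 17.4-fold higher in fasting (log2 ratio 4.13, 3.71 to 4.58) and 4.67-fold lower in cold stress (-2.22, -3.37 to -1.22). In thermal stress the ratio was -0.58 (-1.26 to 0.09), with Unigene1853 called lower and Unigene12727 called higher.

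CYP2K, a fish subfamily with fatty acid hydroxylases in trout, held parts that went opposite ways in fasting and in cold stress and the same way in thermal stress. It held 7581 fragments in normal feeding, 7016 in fasting, 6025 in cold stress and 2677 in thermal stress, with log2 ratios of -0.27, -0.29 and -1.54 (-1.60 to -1.47), the last called. The cluster CL4261, nearly all of it CL4261.Contig2 (3379, 397, 4042 and 1144), held 3414, 421, 4049 and 1147 fragments and was 9.05-fold lower in fasting (-3.18, -3.33 to -3.03). The cluster CL488 held 3514, 5256, 1698 and 1123 and was higher in fasting (0.42, 0.36 to 0.48) but not called. Of its 12 contigs, which share reads, 7 were called higher and 1 lower in fasting (beside 12.5% and 17.6% of all unigenes). CL488.Contig8 (50 against 284 fragments) was among the 5 largest rises in fasting, and CL488.Contig3 (367 against 76) and CL488.Contig12 (55 against 10) were among the 5 largest falls in thermal stress. In cold stress the order turned, with CL4261 above normal feeding (0.29, 0.22 to 0.35) and CL488 lower (-1.01, -1.09 to -0.93). In thermal stress both were lower, CL4261 by -1.61 and CL488 by -1.68 on the log2 scale. Unigene444, the CYP2K unigene with no reads placed elsewhere, held 653, 1339, 278 and 407 fragments.

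The 9 unigenes named CYP2A, CYP2F or CYP2G held 1837 fragments in normal feeding, 2550 in fasting, 1236 in cold stress and 538 in thermal stress. Thermal stress was lowest, at 3.50-fold below normal feeding (-1.81, -1.95 to -1.67), and 7 of the 9 unigenes were called lower there (beside 15.6% of all unigenes). CL3056.Contig3 (832 against 147 fragments), CL2592.Contig2 (67 against 12) and CL2592.Contig3 (144 against 31) were among the 5 largest falls in thermal stress. In fasting (0.31) and cold stress (-0.53) the sum was not called. CYP2U was represented by 1 unigene of 253 bp with 7, 5, 7 and 1 fragments.

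CYP4V enzymes hydroxylate the end carbon of fatty acids. The 8 contigs of CYP4V, all of cluster CL1198, held 461 fragments in normal feeding, 1156 in fasting, 96 in cold stress and 292 in thermal stress. Fasting was highest (log2 ratio 1.17, 1.01 to 1.33) and cold stress lowest (-2.22, -2.56 to -1.90), both called, and thermal stress was at -0.69 (-0.91 to -0.48). CL1198.Contig7 carried most of it, with 326, 768, 70 and 261 fragments. The remaining family 4 unigene, Unigene15210, whose Nr hit is an insect protein, held 100, 154, 173 and 51 fragments and was called lower in thermal stress (-1.01, -1.52 to -0.51), a call that TMM ended (-0.86).

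**Figure D4:**
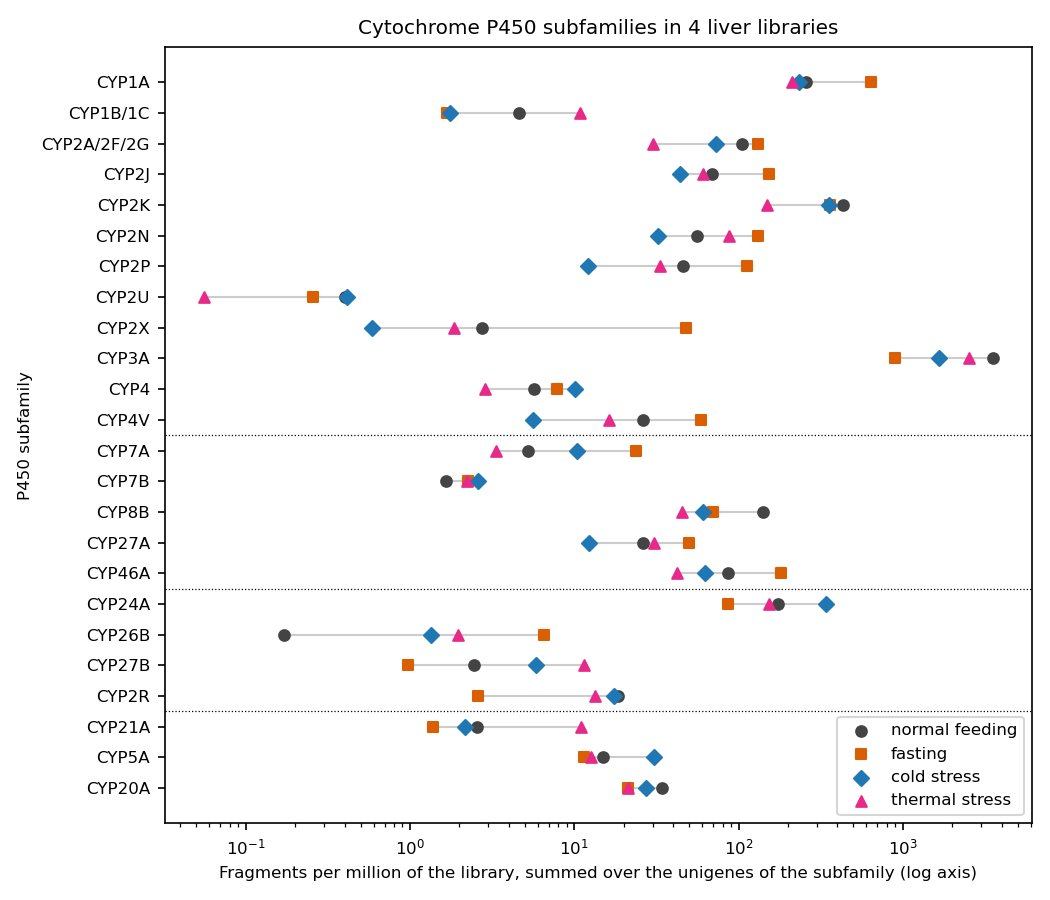
Fragments per 1000000 of the library (horizontal log axis), summed over the unigenes of each of the 24 P450 subfamilies (vertical axis), with 1 symbol for each of the 4 libraries and a grey line over their range. Dotted lines part, from the top, subfamilies for foreign compounds and fatty acids, for cholesterol and bile acids, for vitamin D and retinoids, and all others. CYP2X and CYP26B span the widest ranges with fasting at the high end. Fasting is the lowest library for CYP3A, CYP24A, CYP27B and CYP2R. It is also lowest for CYP1B/1C, CYP21A and CYP5A, though not beyond counting error against the next library.

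Cholesterol and bile acid enzymes had 14 unigenes, of which 3 were called higher and 3 lower in fasting (beside 12.5% and 17.6% of all unigenes), 0 and 5 in cold stress (20.5% and 13.3%), and 0 and 6 in thermal stress (9.42% and 15.6%). CYP7A, the rate-limiting cholesterol 7-alpha-hydroxylase of bile acid synthesis, was 1 unigene (Unigene9765) with 91 fragments in normal feeding, 464 in fasting, 177 in cold stress and 60 in thermal stress. It was 4.57-fold higher in fasting (log2 ratio 2.19, 1.86 to 2.53). In cold stress it lay at the limit and was not called by fragments (1.00, 0.63 to 1.38) but past it by placed reads (1.03), and in thermal stress it was at -0.64 (-1.13 to -0.15). CYP27A, the sterol 26-hydroxylase of mitochondria, held 460, 979, 210 and 548 fragments, most of them on CL1677.Contig2 (290, 627, 103 and 373). It was higher in fasting but under 2-fold (0.93, 0.77 to 1.09), was called lower in cold stress (-1.09, -1.33 to -0.85), and was near normal feeding in thermal stress (0.22, 0.04 to 0.40). TMM or median-of-ratios scaling would put the fasting value of CYP27A past 2-fold.

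CYP8B, the 12-alpha-hydroxylase that sets the proportion of cholic acid, was lower than normal feeding in every other library. Its 6 unigenes held 2473 fragments in normal feeding, 1362 in fasting, 1032 in cold stress and 814 in thermal stress. The log2 ratios were -1.02 (-1.12 to -0.92), -1.22 (-1.33 to -1.12) and -1.64 (-1.75 to -1.52), all called. TMM or median-of-ratios scaling ended the call in fasting (-0.90 and -0.84). By placed reads the values were -2.39, -2.97 and -2.04, so that cold stress and not thermal stress was lowest. CL26.Contig3, with the most fragments over the 4 libraries together, held 685, 642, 524 and 187. CL26.Contig2, the highest in normal feeding, held 790, 415, 254 and 217 and was called lower in all 3 comparisons. CL26.Contig1 held 479, 77, 103 and 235, and CL26.Contig4 held 348, 104, 63 and 90, which put both among the 5 largest falls in cold stress. The summed ratio of the 14 cholesterol and bile acid unigenes in fasting turned with the way reads were counted, from 0.33 (0.28 to 0.39) by fragments to -2.02 by placed reads, of which CYP8B has most.

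CYP46A, named cholesterol 24-hydroxylase, an enzyme known from brain in mammals, was 1 unigene (Unigene618) with no reads placed elsewhere. It held 1504 fragments in normal feeding, 3564 in fasting, 1058 in cold stress and 755 in thermal stress. It was higher in fasting (1.09, 1.00 to 1.17) and lower in thermal stress (-1.03, -1.16 to -0.90), both called, though the latter fell short of 2-fold under TMM (-0.88). CYP7B, the oxysterol 7-alpha-hydroxylase, held 29, 44, 44 and 40 fragments, and no library differed from normal feeding beyond counting error, with intervals in fasting of -0.27 to 1.17, in cold stress of -0.07 to 1.37 and in thermal stress of -0.30 to 1.17.

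**Figure D5:**
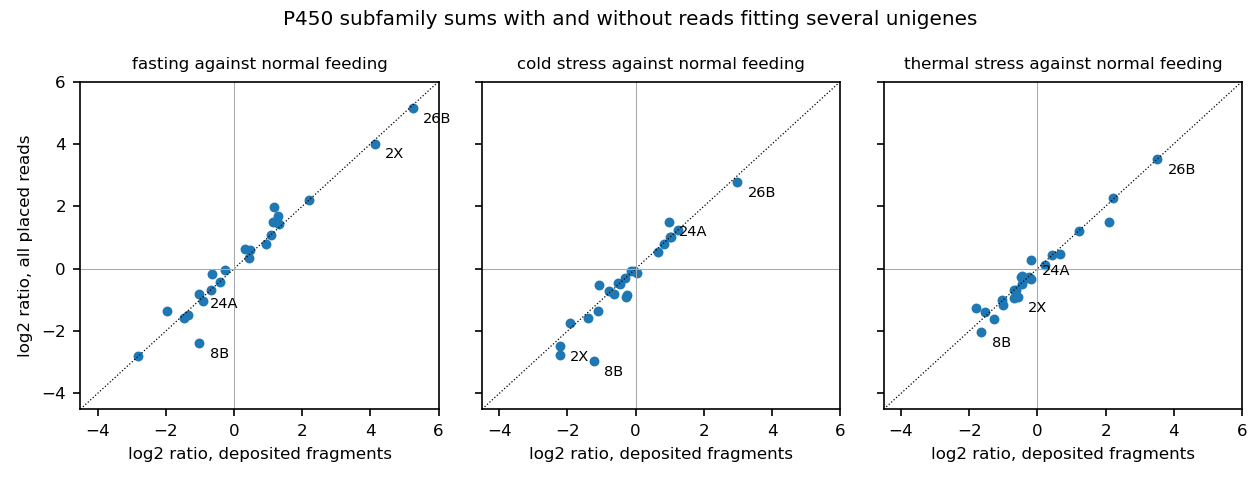
Log2 ratio to normal feeding of the 24 P450 subfamily sums by deposited fragments (horizontal axis) and by all placed reads, those fitting several unigenes included (vertical axis), for fasting, cold stress and thermal stress. The dotted line marks equal values. CYP8B lies below the line in all 3 panels (-1.02 and -2.39 in fasting), and CYP24A changes sign in thermal stress (-0.18 and 0.27).

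Vitamin D and retinoid enzymes had 9 unigenes, of which 1 was called higher and 3 lower in fasting (beside 12.5% and 17.6% of all unigenes), 6 and 0 in cold stress (20.5% and 13.3%), and 4 and 0 in thermal stress (9.42% and 15.6%). CYP2R, a vitamin D 25-hydroxylase that makes the circulating form, was 1 unigene (Unigene318) with 321 fragments in normal feeding, 51 in fasting, 299 in cold stress and 240 in thermal stress. It was 7.03-fold lower in fasting (-2.81, -3.27 to -2.38), while cold stress did not differ beyond counting error (p = 0.602, exact binomial test; interval -0.29 to 0.17). CYP27B, the 1-alpha-hydroxylase that makes the active hormone, held 43, 19, 99 and 205 fragments over 3 short unigenes with no reads placed elsewhere, of which Unigene4023 held 34, 13, 78 and 147. It was lower in fasting (-1.34, -2.20 to -0.53) and higher in cold stress (1.24, 0.71 to 1.79) and thermal stress (2.22, 1.74 to 2.73), all called.

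CYP24A, the 24-hydroxylase that breaks the hormone down, held 3045 fragments in normal feeding, 1685 in fasting, 5828 in cold stress and 2755 in thermal stress. Fasting was called lower (-1.01, -1.10 to -0.93), a call that TMM (-0.89) and placed reads (-0.80) ended. Cold stress was 1.97-fold higher by fragments (0.98, 0.91 to 1.04), just short of a call, and past it by placed reads (1.50). Thermal stress was near normal feeding, at -0.18 by fragments and 0.27 by placed reads. By fragments the rise in cold stress lay in 3 of the 4 unigenes. Unigene7941 held 243, 144, 1675 and 373 fragments, Unigene3579 held 172, 189, 1099 and 113, and CL1986.Contig2 held 47, 94, 503 and 52. Among called members with at least 10 fragments in both libraries, these had the 3 largest rises in cold stress, with log2 ratios of 2.82, 2.72 and 3.46. Of their reads 99.3 to 99.9% fitted several unigenes in the library where that share was highest. CL1986.Contig1, with the most fragments, held 2583, 1258, 2551 and 2217 and was not called in cold stress by fragments. Its uniquely placed reads numbered 4575 in normal feeding and 3194 in cold stress. Its reads fitting several unigenes numbered 5435 and 44186, or 93.3% of its reads in cold stress, so it too was higher there by placed reads.

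CYP26B, which clears retinoic acid, was 1 unigene (Unigene6184) with 3 fragments in normal feeding, 127 in fasting, 23 in cold stress and 35 in thermal stress. Normal feeding was lowest and fasting highest. From so few fragments in normal feeding the log2 ratios have wide intervals, with 5.24 (3.67 to 7.54) in fasting, 2.98 (1.25 to 5.36) in cold stress and 3.51 (1.84 to 5.86) in thermal stress.

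Of the steroid hormone enzymes only CYP21A, the steroid 21-hydroxylase of interrenal tissue, was among the members. Its 3 unigenes held 45 fragments in normal feeding, 27 in fasting, 37 in cold stress and 197 in thermal stress. Thermal stress was 4.27-fold higher (2.10, 1.62 to 2.60), and in cold stress the interval was -0.91 to 0.42. In fasting the ratio was not called by fragments (-0.90, -1.64 to -0.18) and was past 2-fold by placed reads (-1.04). CL1441.Contig1 held 33, 25, 35 and 135 fragments, and Unigene39055 held 4, 0, 1 and 47. No value was computed for markers of steroid-producing cells, so the part of interrenal tissue was not tested. CYP5A, the thromboxane A synthase of platelets and macrophages (Unigene13143), held 263, 223, 520 and 226 fragments. It was called higher in cold stress (1.02, 0.81 to 1.24), a call that TMM ended (0.82). CYP20A, whose substrate is not established (Unigene17046), held 596, 413, 465 and 378 fragments, with no ratio past 2-fold.

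The cold stress and thermal stress libraries were also set against each other. Of the 105 members with fragments, 44 were called (41.9%, against 36.1% of all unigenes). Of these, 27 were higher in thermal stress and 17 lower, beside 11.8% and 24.3% of all unigenes tested. Under TMM, which raised every log2 ratio of thermal to cold stress by 0.35, the numbers higher and lower were 34 and 11. The shares of all unigenes under TMM were not computed. Among the subfamilies called, thermal stress was above cold stress for CYP1B/1C (log2 ratio 2.62, 2.06 to 3.23), CYP21A (2.34, 1.83 to 2.89), CYP4V (1.53, 1.19 to 1.88), CYP2P (1.46, 1.23 to 1.70), CYP2N (1.43, 1.29 to 1.58), CYP27A (1.31, 1.08 to 1.55) and CYP2X (1.65, 0.59 to 2.83). It was below cold stress for Unigene15210 of family 4 (-1.84, -2.32 to -1.38), CYP7A (-1.63, -2.08 to -1.20), CYP5A (-1.28, -1.51 to -1.05), CYP2A/2F/2G (-1.27, -1.42 to -1.13), CYP2K (-1.24, -1.31 to -1.18), CYP24A (-1.16, -1.22 to -1.09) and CYP2U (7 against 1 fragment). With TMM the values of CYP5A (-0.92), CYP2A/2F/2G (-0.92), CYP2K (-0.89), CYP2U and CYP24A (-0.80) no longer reached 2-fold, and CYP27B did (1.33, from 0.98). By placed reads CYP2A/2F/2G (-0.82) and CYP2K (-0.47) fell short of 2-fold, CYP27B reached it (1.01), and CYP8B changed direction (0.93, from -0.42).

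Partners and regulators of the P450 enzymes were read from 41 unigenes summed by gene. Of these unigenes 6 were called higher and 7 lower in fasting (12.5% and 17.6% of all unigenes tested), 11 and 2 in cold stress (20.5% and 13.3%), and 5 and 7 in thermal stress (9.42% and 15.6%). In either direction that is 13, 13 and 12 of 41, near the 30.1%, 33.8% and 25.0% of all unigenes. NADPH-cytochrome P450 reductase held 1051 fragments in normal feeding, 962 in fasting, 1905 in cold stress and 1099 in thermal stress, with no ratio of the sum past 2-fold. Its unigenes differed. CL2519.Contig1 (166, 68, 329 and 179) was called lower in fasting (-1.45) and higher in cold stress (1.03). TMM or median-of-ratios scaling would put the latter under 2-fold. CL2519.Contig2 (119, 249, 187 and 99) and Unigene11268 (766, 645, 1389 and 821) were not called. Cytochrome b5 held 7354, 10738, 13003 and 31813 and was called higher in thermal stress (2.08), but its 2 unigenes differed. Unigene29898 held 6143, 10692, 11529 and 31206 and was called higher in thermal stress (2.31), whereas Unigene29200 held 1211, 46, 1474 and 607 and was called lower there (-1.03) and in fasting (-4.88). Cytochrome b5 reductase, a sum over unigenes named reductase 2, 3 and 4, held 1514, 1077, 971 and 468 and was called lower in thermal stress (-1.73). CL3682.Contig1 (-2.43) and CL3682.Contig2 (-1.89), named reductase 2, were called lower there, and CL3682.Contig2 also in fasting (-1.94). Unigene16305, named reductase 3, was not called in thermal stress (0.22) and was called higher in fasting (1.47). Unigenes named reductase 4 held at most 20 fragments in a library. Adrenodoxin held 1003, 467, 1049 and 972 and was called lower in fasting (-1.26), and its reductase held 24, 21, 1 and 10 and was called lower in cold stress and thermal stress. The synthase of 5-aminolevulinate, the first enzyme of heme synthesis, held 2018, 1844, 4200 and 2431, and heme oxygenase, which breaks heme down, held 680, 524, 1750 and 1283. Both were called higher in cold stress (1.10 and 1.40). TMM or median-of-ratios scaling would put the synthase, but not heme oxygenase, under 2-fold there. In thermal stress the heme oxygenase sum was not called (0.88), and either scaling would put it past 2-fold. Its unigenes differed. CL1795.Contig1 (136, 110, 559 and 607) and CL1795.Contig2 (8, 5, 53 and 31) were called higher in thermal stress (2.12 and 1.92). Unigene11445 (0.77) and the unigenes named heme oxygenase 2 (-0.70, -0.13 and -0.30) were not called there. Membrane components of the progesterone receptor, which bind P450 enzymes, held 5166, 5022, 4055 and 2495 and were called lower in thermal stress (-1.08). Either scaling would put the thermal stress ratios of these components and of Unigene29200 under 2-fold.

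Among the receptors, the aryl hydrocarbon receptor was read only from unigenes that Nr names aryl hydrocarbon receptor 2, and any other form was not counted. It held 349, 350, 423 and 410 fragments in the same order of libraries, and its nuclear translocator 308, 307, 445 and 393. Neither reached 2-fold in a comparison. The unigenes with the KEGG name pregnane X receptor held 46, 158, 23 and 49 fragments and were called higher in fasting (1.62). Of these, Unigene42603 (8, 29, 7 and 3) is named vitamin D3 receptor in Swiss-Prot. Unigene10334, named as the pregnane X receptor in both, held 38, 129, 16 and 46, and was called higher in fasting (1.60) and lower in cold stress (-1.21), while the CYP3A sum was called lower in both.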

How the data were processed

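The members and the gene lists were chosen with earlier results of these data known. The authors assembled paired-end reads without a genome (the study names both SOAPdenovo and Trinity) and named unigenes by BLASTx at an e-value under 1e-05. The aligner and counter are not given in the sources used here. The authors deposited raw fragment counts per unigene, FPKM (those counts per unigene length and library total), and counts of reads placed at 1 or several places. Their comparison tables hold fold changes and p-values, which were not used, and 0 columns of single libraries were left unused. No sequence or coordinate is given.

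Fragments came to 17.49 times 1000000 in normal feeding, 19.53 in fasting, 17.02 in cold stress and 17.92 in thermal stress. Exact two-sided binomial tests used these totals, with adjusted p-values over all unigenes as an alternative. A fold took a library with fewer than 3 fragments as 3, and none was given where both had 3 or fewer. Ratio intervals are Clopper-Pearson at 95%. The test was tested on simulated counts.

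Subfamily sums, the unigene with the most fragments in each family, the 5 largest rises and falls among called members with at least 10 fragments in both libraries, and a partner list were named by rule. Other unigenes were named after their values were seen. Roles followed family numbers. Alternatives were TMM, median-of-ratios size factors, totals without digestive enzymes, a minimum of 10 fragments, cluster sums, edgeR's exact test with a coefficient of variation of 0.4 or with 1 estimated from 3 libraries (0.65), 0.5 fragments added, and members by share of several-place reads (50%), Nr name or length (500 bp). Placed reads and leaving out Unigene28866 were added after seeing the data. Python 3.11.15, scipy 1.17.1, R 4.3.3, edgeR 4.0.16 and DESeq2 1.42.0 were used.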

Additional observations from a re-analysis of the deposited data

How the results depend on the processing

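No paired analysis was possible because each condition has 1 library, and none was left out for the same reason. Counts are members called in fasting, cold stress and thermal stress against normal feeding, and other values are log2 ratios. Summing contigs by cluster gave 27, 21 and 24 calls among 53 units, of which 13, 7 and 12 were higher and 14, 14 and 12 lower. An assumed coefficient of variation of 0.4 gave 26, 18 and 17. A dispersion borrowed from 3 libraries, which counts their differences as spread, gave 7, 4 and 4. The 30 members with at most 50% of reads at several places gave 13, 11 and 17. Of those calls 6, 4 and 9 were higher and 7, 7 and 8 lower. For cluster sums, for both dispersions and for these 30 members, the share of all unigenes called was not computed. Whether the members exceed the background there was not tested. Under the other alternatives the counts stayed within 1.5 times 51, 47 and 51.

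The P450 sum in fasting turned to 0.42 over those 30 members and to 0.23 without Unigene28866, both by fragments. It kept its direction under the other alternatives. By placed reads the members without Unigene28866 were lower in fasting. Of the 13 family sums 8, 5 and 4 were called, and over those 30 members 5 and 2 in fasting and cold stress. No share over like sums of other unigenes was computed. For thermal against cold stress 5 families were called, and 2 under TMM or size factors.

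Over those 30 members CYP2P in fasting turned to -0.23, and CYP3A to 0.0414 in cold stress and 1.37 in thermal stress. Under TMM and size factors CYP2U in cold stress turned to -0.17 and -0.14 (-0.13 by placed reads). CYP1A in thermal against cold stress turned to 0.20 and 0.19, and CYP7B to 0.14 and 0.12. In fasting Unigene3579 turned to 0.10 and 0.15. In cold stress CL1441.Contig1 turned to -0.0809 and -0.0586, CL1986.Contig1 to -0.18 and -0.16, and Unigene29390 to -0.16 and -0.14, and in thermal stress CL86.Contig1 to 0.11 and 0.12. By placed reads CYP24A in thermal stress turned to 0.27 and CYP8B in thermal against cold stress to 0.93. By placed reads CL2592.Contig2 (-0.31), CL3056.Contig3 (0.39) and CL488.Contig12 (-0.36) turned in fasting, CL1049.Contig1 (-0.00855) and CL1441.Contig1 (-0.67) in cold stress, and CL1986.Contig1 (0.78) and CL86.Contig1 (0.14) in thermal stress. The causes were not tested beyond the construction of each alternative. Of 111 values of named unigenes, 26 lost their call at a coefficient of variation of 0.4 and 52 at the borrowed dispersion. Depth limits CYP2U, CYP2X, CYP7B, CYP21A, CYP26B and CYP27B, which held under 50 fragments in normal feeding.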
